A study of Homo sapiens with 4 samples.

Results

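The CHD genes encode chromodomain helicase DNA-binding proteins, chromatin remodellers that use ATP to slide, space or evict nucleosomes. All 9 members, CHD1 to CHD9, were on the array, among 17778 named genes, and 12 of its 26423 probes carried their names. CHD2 had 3 probes, CHD1 had 2 and each other member had 1. Members were found by the gene symbol that the platform annotation gives each probe. The family was chosen by its gene names, but with the measured differences between berberine and control samples already known. Its values in that contrast are therefore a description. No p-value of a CHD probe is given, and counts of CHD probes past a threshold stand only beside the share of all probes.

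Expression was profiled on 4 one-colour arrays, from 2 samples of HepG2 cells exposed to the plant alkaloid berberine (26.95 µM, 24 hours) and 2 samples without it. HepG2 is a human hepatocellular carcinoma line, grown here in DMEM with fetal bovine serum. Another field of the labels speaks of a 48 hour differentiation, named MDI, and gives 13.47 µM as the berberine dose. This conflict over cells and treatment was not resolved. No label says whether replicates came from separate cultures, and the spread between them may be only technical.

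All 26423 probe identifiers have the prefixes of a mouse array, while the labels give human cells, so each CHD value is what a probe designed for mouse picked up and may not measure the human CHD mRNA. Probe sequences were not used here. Median intensity was 77 and 85 in the berberine samples and 90 and 62 in the control samples. Values below 0 numbered 1 and 11 in the berberine samples and 0 and 269 in the control samples, the largest number being in control 2. Unless called intensities as deposited, levels are log2(quantile normalized intensity + 1), and a fold change is a difference of group means on that scale, berberine minus control. The 543 probes named for olfactory receptors served as a guide to background, with a 95th percentile of 9.23, and 2010 of all probes had means above it. Each probe has its own response, so levels of different probes are not read as relative amounts of mRNA. The comparison with olfactory receptor probes, and the words bright and dim, are only a rough guide.

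The labelled cell type was checked against 15 measured hepatocyte genes, of which 2, RBP4 and GPC3, had means above 9.23. The probe named AFP, for alpha-fetoprotein, which HepG2 cells typically secrete, read 4.75 and the albumin probe ALB read 8.35, so these defining markers lay within the olfactory range. The summed intensity of the 15 hepatocyte genes was 7571 and 10801 in the berberine samples, against 21231 and 16411 in the control samples. Most of that sum came from RBP4, with 5611 and 8161 in the berberine samples and 17823 and 13847 in the control samples. The summed intensity of 14 adipocyte genes was 4002 and 5425 in the berberine samples, against 9362 and 9009 in the control samples. Of these 14 genes 4 had means above 9.23, namely CEBPA (10.98), which hepatocytes also express, CD36 (10.33), PNPLA2 (9.97) and SLC2A4 (9.40). PPARG (4.75), LEP (5.32), FABP4 (6.52) and ADIPOQ (6.65) lay within the olfactory range. FABP4 went against the sum, with 126 and 131 in the berberine samples and 79 and 43 in the control samples. ADIPOQ went with it, with 67 and 103 in the berberine samples and 145 and 104 in the control samples. Most of the difference in the adipocyte sum came from CEBPA, with 906 and 1007 in the berberine samples and 4727 and 3678 in the control samples. None of 10 fibroblast, 7 macrophage, 6 endothelial and 6 lymphocyte genes had a mean above 9.23. The part of these marker differences in the CHD values was not tested.

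The family falls into 3 groups by domain. CHD1 and CHD2 carry chromodomains in tandem and a DNA-binding domain near the carboxyl end. CHD1 reads methylated lysine 4 of histone H3 and spaces nucleosomes over transcribed genes, and CHD2 has been linked to deposition of the variant histone H3.3. CHD3, CHD4 and CHD5 carry PHD fingers and can each serve as the motor of the NuRD complex, which also holds histone deacetylases. CHD6 to CHD9 share BRK domains, and several of them work with transcription factors, such as CHD8 with beta-catenin and CTCF and CHD9 with the nuclear receptor PPARA.

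**Figure D1:**
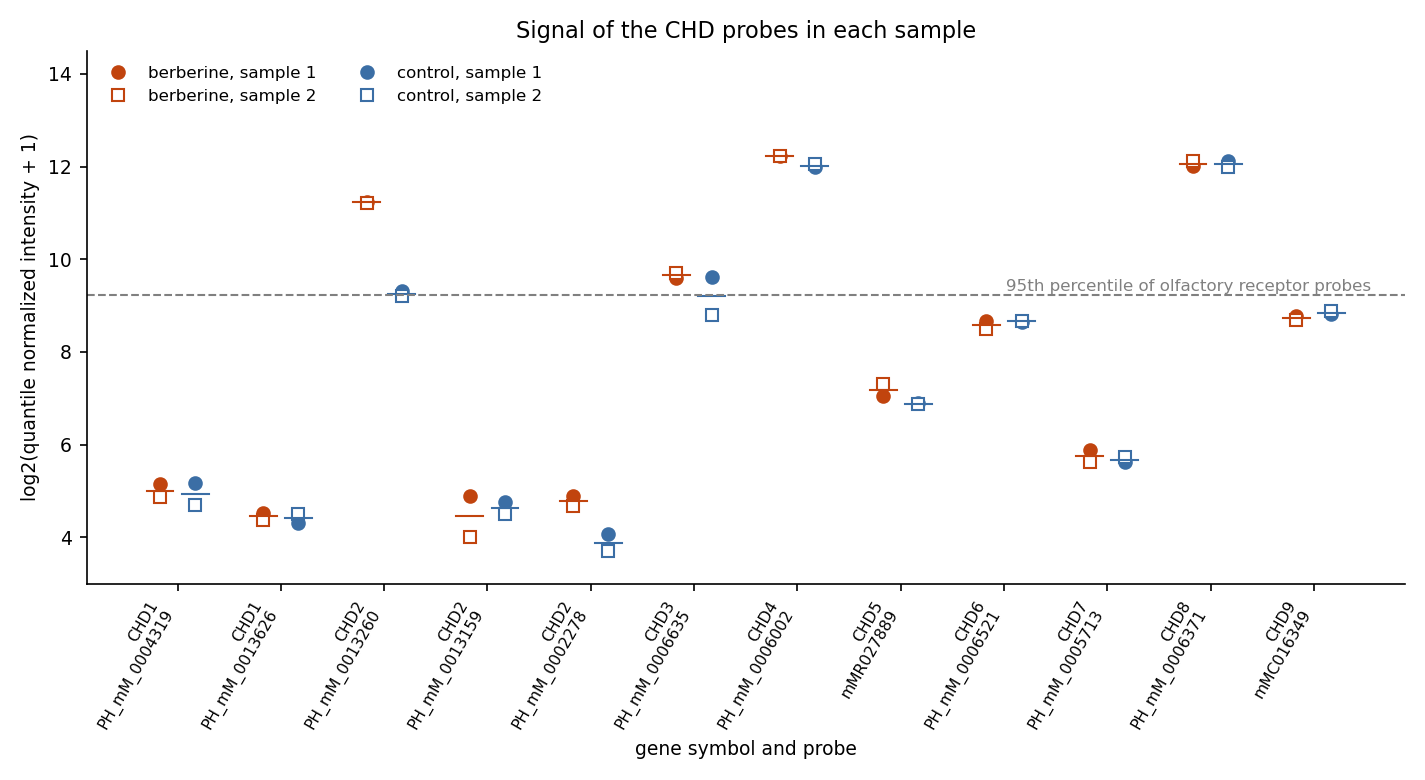
Level of each CHD probe in each sample, on the log2(quantile normalized intensity + 1) scale, with berberine samples in orange and control samples in blue and short lines at the group means (n = 2 each). The dashed line is the 95th percentile of olfactory receptor probes (9.23), and CHD2 PH_mM_0013260 is the probe whose groups stand farthest apart.

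CHD2 was the member with the largest difference, and it was seen at 1 bright probe of its 3. Probe PH_mM_0013260 had intensities as deposited of 2072 and 2425 in the berberine samples, against 727 and 590 in the control samples. Both treated samples lay far above both untreated ones. In bulk RNA, a change in the make-up of the cells and a change in mRNA per cell cannot be told apart. After scaling, the levels were 11.24 and 11.21 in the berberine samples and 9.31 and 9.21 in the control samples. The group means were 11.23 ± 0.02 with berberine and 9.26 ± 0.08 in controls (SD, n = 2 each). The fold change was 1.97 on the log2 scale with an SE of 0.118, which is 3.91-fold with a 95% interval of 3.12-fold to 4.89-fold. The interval makes no allowance for the choice of the family with this contrast known, so it is a description and not a test. By size of the signed fold change this probe was 29th of all 26423 probes and 10th of the 2010 above the olfactory 95th percentile. That cut uses the mean over all 4 samples, and in controls alone the probe lay close to the percentile of 9.23. The fold change was 1.77 on the intensities as deposited, where the median of all probes was 0.11, and 1.66 after median centring. It ran from 1.91 to 2.02 when each sample was left out in turn.

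The other CHD2 probes were dim. Probe PH_mM_0002278 had intensities as deposited of 30 and 27 in the berberine samples, against 23 and -5 in the control samples. Its levels were 4.89 and 4.67 with berberine and 4.07 and 3.70 in controls, so the groups did not overlap. Only 5.71% of olfactory receptor probes had a lower mean than this probe. Its fold change of 0.90 (SE 0.187) on the log2 scale was 0.26 with a pseudocount of 50 and 2.59 with values as deposited. Probe PH_mM_0013159 had intensities as deposited of 30 and 16 in the berberine samples and 33 and 4 in the control samples. Its groups overlapped, and its fold change of -0.18 had an SE of 0.344, with a 95% interval of -1.13 to 0.76. It was 0.82 on the intensities as deposited and 0.70 after median centring, so its direction turned with the scaling. Only 9.21% of olfactory receptor probes were dimmer than PH_mM_0013159. At such signals the dim CHD2 probes can neither show nor exclude a difference like that of the bright probe.

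**Figure D2:**
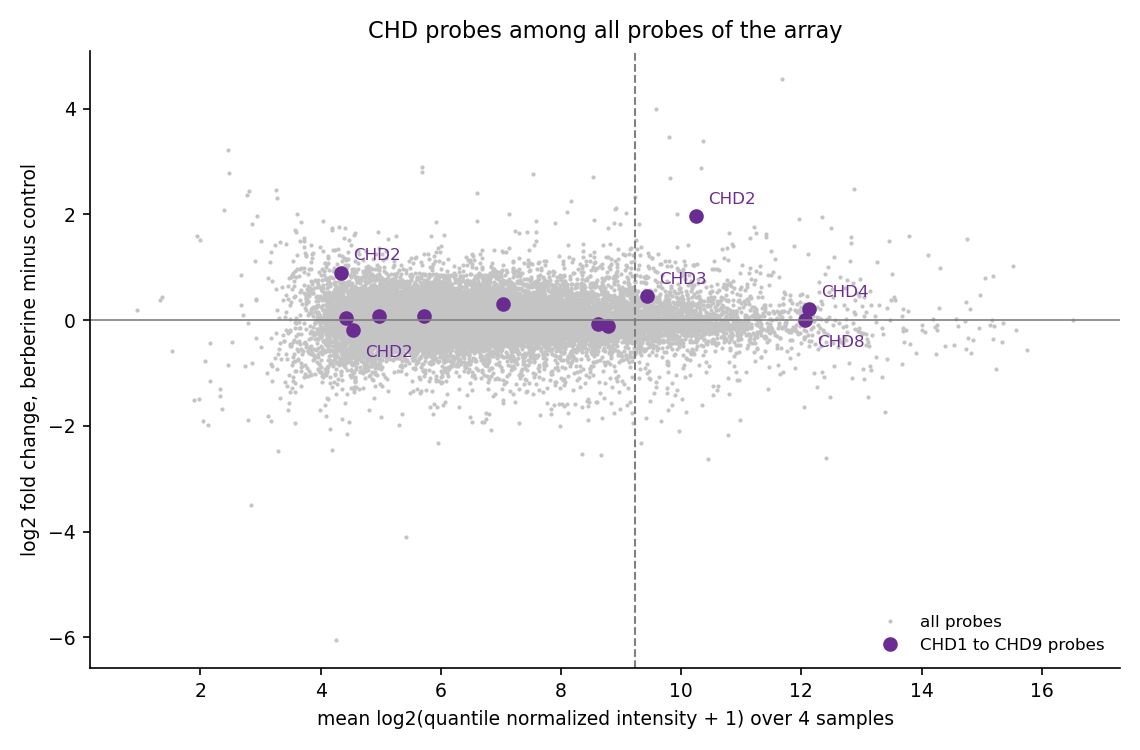
Log2 fold change (berberine minus control) against mean level over the 4 samples for all 26423 probes in grey, with the 12 CHD probes in purple. The dashed line is the olfactory 95th percentile (9.23); the bright CHD2 probe stands at 1.97 above the bulk of probes, and CHD4 and CHD8 lie near 0 at the bright end.

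CHD1, the closest relative of CHD2, had dim probes only. Probe PH_mM_0004319 had intensities as deposited of 39 and 32 in the berberine samples and 42 and 11 in the control samples. Probe PH_mM_0013626 had 28 and 24 in the berberine samples, against 29 and 4 in the control samples. For both probes the low value was that of control 2, and after scaling their groups overlapped. The fold changes were 0.08 (95% interval -0.54 to 0.70) and 0.04 (95% interval -0.35 to 0.43) on the log2 scale. On the intensities as deposited they were 0.68 and 1.14, and after median centring 0.56 and 1.02. Of olfactory receptor probes, 19.9% and 7.37% were dimmer, so at this signal the probes can neither show nor exclude a change of CHD1.

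Among the NuRD motors, CHD4 was bright, and its groups differed little. Its probe had intensities as deposited of 4144 and 5045 in the berberine samples and 4726 and 4089 in the control samples, which overlap. After scaling, the levels were 12.22 and 12.23 with berberine, against 11.99 and 12.05 in controls, and the groups no longer overlapped. The fold change was 0.21 on the log2 scale, or 1.15-fold, with a 95% interval of 0.930-fold to 1.43-fold. It was 0.06 on the intensities as deposited and -0.06 after median centring, so its direction turned with the scaling.

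CHD3, which replaces CHD4 in some NuRD complexes, was decided by 1 control sample. Its intensities as deposited were 652 and 833 in the berberine samples and 898 and 435 in the control samples. Levels were 9.60 and 9.70 with berberine and 9.61 and 8.79 in controls, so control 1 matched the berberine samples and control 2 lay below them. The fold change of 0.45 had an SE of 0.310, and it was 0.04 without control 2 and 0.86 without control 1.

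CHD5, known mainly from neurons and as a tumour suppressor, had intensities as deposited of 124 and 163 in the berberine samples and 136 and 101 in the control samples. Its levels were 7.06 and 7.30 with berberine, against 6.89 and 6.88 in controls, and did not overlap after scaling. The fold change was 0.30 with a 95% interval of -0.09 to 0.68, and 68.0% of olfactory receptor probes were dimmer than this probe.

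In the BRK domain group, CHD8, a regulator of beta-catenin targets and a gene mutated in autism, was bright, and its groups overlapped both as deposited and after scaling. Its intensities as deposited were 3492 and 4578 in the berberine samples and 5062 and 3991 in the control samples. Levels were 12.01 and 12.12 with berberine and 12.12 and 11.99 in controls. The fold change was 0.01 on the log2 scale, or 1.01-fold, with a 95% interval of 0.790-fold to 1.28-fold. It was -0.17 on the intensities as deposited and -0.28 after median centring.

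CHD9, described as a coactivator of PPARA in liver, had intensities as deposited of 373 and 414 in the berberine samples, against 516 and 464 in the control samples. Its levels of 8.77 and 8.68 with berberine lay below 8.81 and 8.87 in controls. The fold change was -0.12 with a 95% interval of -0.44 to 0.20. It kept its sign under the other scalings, at -0.32 as deposited and -0.43 with median centring. The mean of this probe lay below the olfactory 95th percentile, with 90.8% of olfactory receptor probes dimmer.

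CHD6, a relative of CHD9, had intensities as deposited of 347 and 366 in the berberine samples and 461 and 396 in the control samples. After scaling, its levels were 8.67 and 8.49 with berberine and 8.65 and 8.66 in controls, which overlap. Its fold change was -0.08 (95% interval -0.43 to 0.27), but -0.26 on the intensities as deposited, -0.37 after median centring and 0.01 without berberine 2. Of olfactory receptor probes, 89.3% were dimmer than the CHD6 probe. CHD7, the gene mutated in CHARGE syndrome, was dim, with 58 and 54 in the berberine samples, against 59 and 34 in the control samples as deposited. The fold change of CHD7 was 0.08 (95% interval -0.32 to 0.48), with 0.31 on the intensities as deposited and 0.20 after median centring, and 41.3% of olfactory receptor probes were dimmer.

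**Figure D3:**
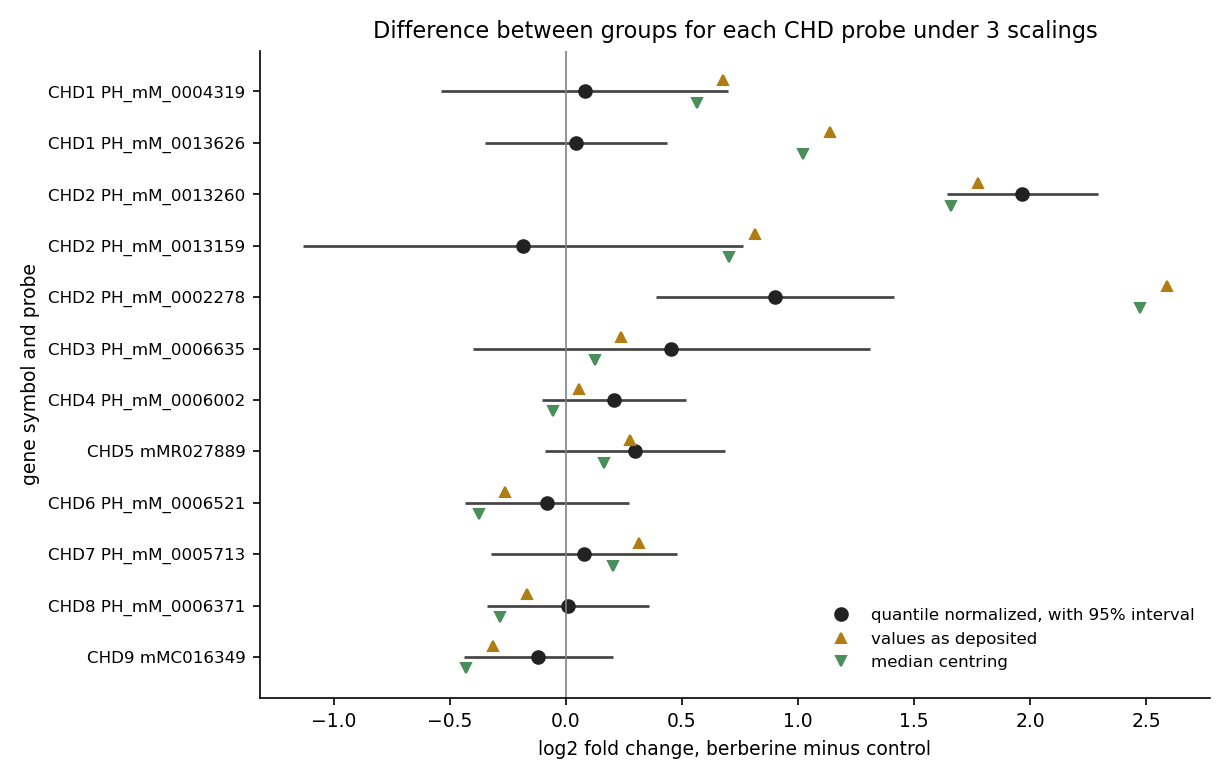
Log2 fold change (berberine minus control) of each CHD probe. Black points are quantile normalized values with 95% intervals from limma, which make no allowance for how the family was chosen. Triangles are values as deposited (up) and median centred (down). The bright CHD2 probe lies between 1.66 and 1.97 under the 3 scalings. Against quantile normalization the other scalings move it left, as they do CHD3, CHD4, CHD5, CHD6, CHD8 and CHD9. They move the dim CHD1, CHD2 and CHD7 probes right.

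Across the family, 4 of 12 probes had means above the olfactory 95th percentile, those of CHD4, CHD8, CHD3 and the bright one of CHD2. These are means over all 4 samples. In controls alone the mean was 9.20 for CHD3, below the percentile of 9.23, and 9.26 for the bright CHD2 probe, just above it. Their means with berberine were 9.65 and 11.23. The median fold change over the 12 probes was 0.08 on the log2 scale, against -0.01 over all probes, and the median size of the fold change regardless of sign was 0.15, against 0.19. The 9 probes of members other than CHD2 ran from -0.12 to 0.45. The groups did not overlap for 4 CHD probes that were higher and 1 that was lower with berberine. Over all probes the share without overlap was 43.5%, with 21% higher and 22.5% lower.

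In the fit across all probes, limma without an intensity trend, 0 of 12 CHD probes passed a Benjamini-Hochberg adjusted p of 0.05, as did 0% of all probes. At an unadjusted limma p under 0.05 the count was 2 of 12, both higher. Of all probes 11.7% had such a p, 6.09% higher and 5.65% lower. Both CHD probes were of 1 gene, CHD2: the bright probe and PH_mM_0002278, whose signal lay near background. When limma's variance was allowed to follow intensity (the trend test), the count after adjustment was 1 of 12, the bright CHD2 probe. Of all probes 1.07% passed, 0.704% as higher and 0.367% as lower. Bright probes passed more often, at 7.71% of the 2010 above the olfactory 95th percentile, where 4 of the 12 CHD probes lay. Since this contrast was known when the family was picked, nothing is read from these counts. Replicate spread depended on brightness, with a median SD of 0.361 in the dimmest of 10 equal groups of probes and 0.0827 in the brightest, which holds the bright CHD2 probe.

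The probes most like the bright CHD2 probe over the 4 samples were found among 10505 named probes brighter than the median, by the root mean square difference of levels centred on each probe's own mean. They were IER5, an immediate early response gene, at a difference of 0.0652, PLK3, a stress-responsive polo-like kinase, at 0.0684, and MECOM, a zinc finger transcription factor, at 0.0734. PLK3 had intensities as deposited of 9190 and 10014 in the berberine samples, against 2927 and 2637 in the control samples. IER5 had 308 and 377 with berberine and 115 and 82 in controls, and MECOM had 505 and 528 with berberine and 163 and 110 in controls. Their fold changes were 1.94, 1.88 and 2.04 on the log2 scale, in the order PLK3, IER5 and MECOM. The mean levels of IER5 (7.59) and MECOM (8.10) lay below the olfactory 95th percentile, and that of PLK3 (12.34) above it. The likeness to the bright CHD2 probe rests on 4 samples. Fold changes close to that of the CHD2 probe follow from how these probes were picked and are not a separate result.

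Other chromatin remodelling genes were taken from 6 lists, of which 89 of 101 symbols were matched, by 104 probes. None of the 104 probes passed the limma test without a trend, and 14 (13.5%) had an unadjusted p under 0.05, 12 higher and 2 lower, near the 11.7% of all probes. With the intensity trend 2 (1.92%) passed, both higher and both named EPC1, where 1.07% of all probes passed. Of the 2010 probes above the olfactory 95th percentile, 7.71% passed, and 18 of the 104 probes lay above it. The median fold change over the 104 probes was 0.06.

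**Figure D4:**
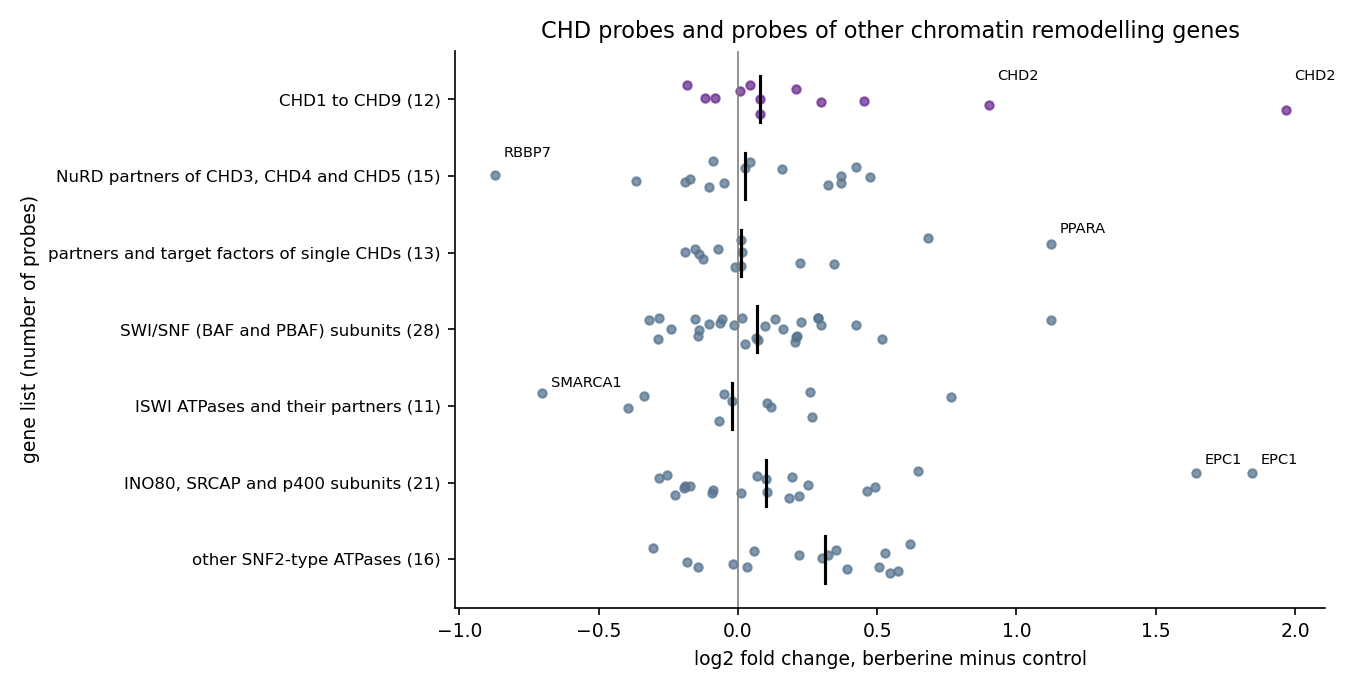
Log2 fold change (berberine minus control) of each probe named for a CHD gene (purple) or for a gene of 6 other lists (blue), with list medians as black lines; points are spread vertically at random. The bright CHD2 probe (1.97) and 2 EPC1 probes (1.64 and 1.85) lie farthest to the right.

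NuRD subunits, the partners of CHD3, CHD4 and CHD5, were measured by 15 probes for 11 genes. Of these, 0 passed either limma test, 8 were above 0 and 7 below, and the median was 0.02. The smallest p belonged to RBBP7, a histone-binding subunit, with levels of 5.98 and 5.72 with berberine and 6.89 and 6.55 in controls. The difference was -0.87, SE 0.186 (limma adjusted p = 0.298, and 0.0596 to 1.00 under the other settings), at a level within the olfactory range.

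Of 13 probes for partners and target factors of single CHD proteins, 0 passed either test, and the median was 0.01. PPARA had a probe at 6.15 and 5.92 with berberine, against 4.93 and 4.89 in controls, a fold change of 1.12 (limma adjusted p = 0.161, and 0.0319 to 1.00 under the other settings). Its second probe was at -0.07, and both were dim. CTCF, the insulator protein that binds CHD8, was bright, with levels of 11.54 and 11.48 with berberine and 11.26 and 11.31 in controls and a fold change of 0.22 (limma adjusted p = 0.517). CTNNB1, the gene of beta-catenin, was at 7.85 and 7.67 with berberine and 6.97 and 7.18 in controls. Its fold change was 0.68 (limma adjusted p = 0.298, and 0.130 with the trend), at a level within the olfactory range. CTCF and CTNNB1 were added after their values were seen.

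The largest fold changes among the 104 probes were those of EPC1, a subunit of the NuA4 acetyltransferase complex that contains p400. Probe mMC024721 had intensities as deposited of 2690 and 3139 in the berberine samples, against 1124 and 1051 in the control samples. Probe PH_mM_0012552 had 707 and 948 with berberine and 288 and 229 in controls. Both probes were thus higher in each berberine sample, by 1.64 (SE 0.116) and 1.85 (SE 0.130) on the log2 scale. Their limma adjusted p was 0.105 for each without a trend, and 0.00523 and 0.00709 with it, in a range over all settings of 4.9e-05 to 1.00 and 0.000103 to 1.00. Another EPC1 probe was at 0.22, and at -0.07 with median centring. In this list of 21 probes for INO80, SRCAP and p400 subunits, the median was 0.10 and no other probe passed the trend test.

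Of 28 SWI/SNF probes 0 passed either test, with a median of 0.07. SS18 had the smallest p of this list, with a fold change of 0.43 at 1 probe (limma adjusted p = 0.368) and 0.07 at another. Of 11 ISWI probes 0 passed either test, and the median was -0.02. SMARCA1, an ISWI motor, was very bright, with intensities as deposited of 6614 and 7968 in the berberine samples, against 13072 and 12170 in the control samples. Its fold change was -0.70 (limma adjusted p = 0.300, and 0.0135 to 1.00 under the other settings). Of 16 probes for other SNF2-type motors, 0 passed either test, and the median was 0.31. Fold changes were above 0 for 12 of the 16, and for 12818 of all 26423 probes. SMARCAD1, which acts in heterochromatin and DNA break repair, was at 0.55 (limma adjusted p = 0.320).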

How the data were processed

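Per the labels and the table itself, the authors deposited 1 table of linear intensity values, whole numbers, for 4 Cy5-labelled arrays. How it was scanned, background corrected and normalized is not stated in those sources. Intensities were quantile normalized, values under 0 set to 0, and log2(value + 1) taken. Each of 26423 probes was a row in limma 3.58.1 (R 4.3.3; lmFit, eBayes without a trend, 2 residual degrees of freedom), 2-sided, with Benjamini-Hochberg adjustment over all probes and a threshold of 0.05. An exact permutation test here cannot go below 0.333. The number of arrays limits the precision. The script was tested on simulated data. Figures used matplotlib 3.10.9 (Python 3.11.15).

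Platform annotation gave 20377 probes 1 gene symbol, and 6046 are unnamed here. Every CHD probe is named. Of each list the gene with the smallest p is named, with all its probes, and the 3 probes closest to the bright CHD2 probe. List symbols were matched to RefSeq symbols and synonyms. The members and lists were chosen with earlier results of these data known. Settings tried were other scalings, a filter on the dimmest 30% of probes, a pseudocount of 50, an intensity trend with and without the robust option, 1 row per gene, a replicate block and each sample left out.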

Additional observations from a re-analysis of the deposited data

How the results depend on the processing

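Over all probes the limma count past the threshold was 0 of 26423, with 3101 at an unadjusted p under 0.05. Without the dimmest 30% of probes it was 67 (48 higher, 19 lower) of 18500. Of 26423 probes it was 259 with a pseudocount of 50, 283 with an intensity trend and 789 with the trend and robust options. With 1 row per gene it was 9 of 17778. For CHD probes the count was 0 of 12, and 1 of 8 without the dimmest probes. It was 1 of 12 with a pseudocount of 50, with the trend, and with the trend and robust options. For the 104 list probes it was 0, and 2 of 79 without the dimmest probes. It was 2 of 104 with a pseudocount of 50, 2 with the trend and 5 with the trend and robust options. Values as deposited, median centring and leaving out any 1 sample gave 0 for all 3 counts, with 525, 2789 and 1785 to 3706 of all probes at an unadjusted limma p under 0.05. Leaving out a sample together with the trend, a combination chosen after seeing the data, also gave 0, with 1880 to 4169. With 1 row per gene the CHD count was 0 of 9 and the list count 0 of 89. With the replicate number as a block the counts were 0, with 2557 probes at an unadjusted limma p under 0.05. The labels do not say that the replicate number marks a shared culture or day, so the numbers were not taken to pair the samples. Deviations of same-numbered samples correlated at r = 0.084 across all probes, a value that cannot exclude a pairing. Of the 12 CHD probes, 5 kept their sign under every setting run on them (the bright CHD2 probe, CHD2 PH_mM_0002278, CHD3, CHD5 and CHD9) and 7 did not. The causes of these changes were not tested. Signal near background limits what CHD1, CHD7 and the dim CHD2 probes can show.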
